A study of Schmidtea mediterranea with 2 samples.

Results

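A class of planarian trunk cells marked by the genes SMESG000043649.1 and SMESG000065348.1 is described here. A cell was counted as marked when at least 5 of its unique molecular identifiers (UMIs, each standing for 1 captured transcript) and at least 0.5% of all its UMIs came from these genes together, among cell barcodes with at least 100 detected genes. The rule found 102 marked cells among 12834 cells in all. All 102 were among the 6044 cells of the control RNAi library, which is a share of 1.69% (exact 95% interval 1.38 to 2.04%). The 6790 cells of the foxA RNAi library held 0, which with 0 taken as up to 3 cells allows a share of up to 0.0442%. Against the control share of 1.69% taken as exact, the foxA share was at least 38.2-fold lower. The marker counts chose the cells, so this difference is a description.

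The animals were Schmidtea mediterranea of the strain CIW4, a freshwater flatworm. The foxA RNAi group and the control RNAi group each gave 1 library, prepared from the trunks of 50 pooled animals, and both carried the same genotype label and went through the same preparation. Trunks were dissociated, and nucleated, live cells were sorted by a DNA dye and a viability dye before droplet capture and sequencing of transcript 3′ ends. In both libraries the cDNA was digested by CRISPR with 30 guides against 16S ribosomal sequence and amplified for 10 cycles.

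Planarians renew their tissues throughout life from stem cells, which commit to separate fates under the control of transcription factors. foxA encodes a forkhead transcription factor that planarians need to maintain and regenerate the pharynx, the muscular feeding tube carried in the trunk. RNA interference lowers the transcripts of a gene through double-stranded RNA of its sequence. The study asked, by its title, how fate boundaries in stem cells depend on roboA, anosmin-1 and foxA. The deposited files give gene identifiers without gene names, so neither the marked cells nor their genes are given a name here, and how far foxA was lowered was not analysed here.

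The foxA library was the deeper one, with 7852495 UMIs over 6798 deposited barcodes and a median of 904 UMIs per kept cell, against 4329019 UMIs, 6056 barcodes and a median of 559 UMIs in the control library. No foxA barcode, kept or not, held a single UMI of either marker gene. Fewer cells of this class and loss of the marker transcripts from cells that are still there cannot be told apart from the marker counts alone. Of the barcode sequences, 13 occurred in both libraries, and 0 of them belonged to a marked cell. With 1 library per condition there is no replicate check, no test was made, and every interval below is an exact 95% interval that covers counting error only.

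The marked cells devoted a large part of their captured transcripts to the marker genes. The summed share ran from 0.701% to 46.5% of a cell's UMIs, with a median of 13.3% and quartiles of 3.10% and 21.2%. It was below 2% in 14 cells, between 2 and 10% in 31 cells, between 10 and 30% in 47 cells and above 30% in 10 cells. Over all marked cells together the marker genes made up 12.98% of UMIs.

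SMESG000043649.1 was found in all 102 marked cells, at 1 to 299 UMIs per cell with a median of 41.5. SMESG000065348.1 was found in 90 of them, at 0 to 112 UMIs with a median of 17. SMESG000043649.1 had the higher count in 94 cells and SMESG000065348.1 in 6. Spearman's rho between the shares of both genes was 0.781 over the 102 cells, which all come from 1 library, and 12 cells held SMESG000043649.1 only.

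**Figure D1:**
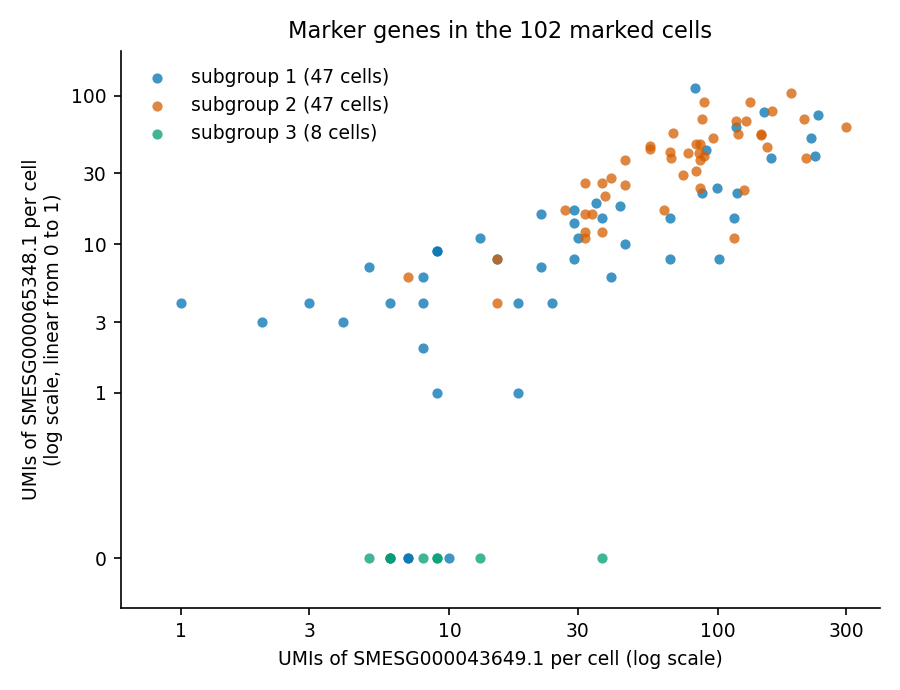
Each point is 1 of the 102 marked cells, with its UMIs of SMESG000043649.1 on the x axis and of SMESG000065348.1 on the y axis (log scales, the y axis linear from 0 to 1), coloured by subgroup. Both counts are high in the same cells of subgroups 1 and 2, and all 8 cells of subgroup 3 lie at 0 for SMESG000065348.1.

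The edge of the rule was thinly filled. Of the 5942 remaining control cells, 92 (1.55%) held at least 1 marker UMI, and in 77 of these it was a single one. Only 3 of these cells had 5 or more marker UMIs (5 to 11), at 0.412 to 0.484% of their 1033 to 2670 UMIs, just under the share the rule asks for. Just inside the rule, 3 marked cells had 5 marker UMIs, 3 had 6, and 13 had from 5 to 9. The marked cells held 98.3% of all SMESG000043649.1 UMIs of their library and 99.1% of all SMESG000065348.1 UMIs. The ratio of the first gene to the second was 2.46 in the marked cells and 4.64 in the remaining control cells.

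In depth the marked cells were close to the rest of their library, with a median of 617 UMIs against 559 in the remaining control cells. They spread these UMIs over fewer genes, with a median of 374 genes against 409. When every cell was thinned to 400 UMIs, the median was 268.5 genes in 82 marked cells, 327 in 6790 foxA cells and 318 in 4481 remaining control cells; 20 marked and 1461 remaining control cells were shallower than this and were left out. The 10 most abundant genes held 22.5% of UMIs in the marked cells, 5.68% in foxA cells and 6.77% in the remaining control cells. The marker genes alone held 12.98% of UMIs in the marked cells, and the cells were chosen for a high marker share. The lower number of genes and the higher share of the most abundant genes are therefore partly built in.

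Markers of 10 other cell classes of these libraries were also read. Their summed level was 1022 CPM (UMIs of a set scaled to a total of 1000000) in the marked cells, 5187 CPM in foxA cells and 6359 CPM in the remaining control cells. Of the 10 genes, 5 were at 0 in the marked cells, and the 74 UMIs found lay in 13 cells. For 3 of the 5 (SMESG000043411.1, SMESG000017804.1 and SMESG000075928.1) the remaining control cells were at only 3.999, 15.3 and 47.0 CPM. In the marked cells 0 UMIs, taken as up to 3, allow 41.4 CPM, so a lower level was not detectable for the first 2 and hardly so for the last. A single cell held 29 of the 30 UMIs of SMESG000029602.1, and 4 cells held the 28 UMIs of SMESG000024991.1. Without these 13 cells, an alternative added after seeing the data, the numbers of genes raised at least 16-fold (10) and of those near 0 in the foxA library (5) were as given below. Genes at least 4-fold higher than in the remaining control cells then numbered 119, against 99 with all marked cells. Those at least 4-fold lower numbered 1558, against 1127.

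The profile of the marked cells was read from UMIs summed over the 102 cells and over the 5942 remaining control cells, as log2 of the ratio of CPM plus 10. The marked cells gave 72386 UMIs in all, so that 1 UMI stands for 13.8 CPM there. Capture of 3′ ends gives 1 tag per transcript, so CPM are not divided by gene length. Apart from the marker genes, 99 of 7846 genes with at least 100 UMIs in the control library (1.26%) were at least 4-fold higher in the marked cells, and 1127 (14.4%) were at least 4-fold lower. The median over all genes was −0.55, and −0.40 with totals taken without the marker genes, where 131 genes were higher and 1092 lower. With a pseudocount of 50 CPM, 48 genes were higher and 116 lower. Choosing the cells by the markers also chooses what goes with them, so these counts describe the class and are no test.

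Just 10 genes (0.127%) were at least 16-fold higher, and they are called class genes here. They made up 4.14% of UMIs in the marked cells, 0.0270% in foxA cells and 0.0221% in the remaining control cells. A marked cell held a median of 5 of the 10, and 81 of the 102 (79.4%) held at least 3. At least 3 class genes were seen in 33 foxA cells (0.486%) and in 18 remaining control cells (0.303%), and at least 5 in 59 marked cells, 0 foxA cells and 1 remaining control cell. The class genes were chosen for being high in these marked cells, and 5 of them together had only 3 UMIs in the foxA library. These contrasts are therefore largely built in, and nothing is read from them.

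**Figure D2:**
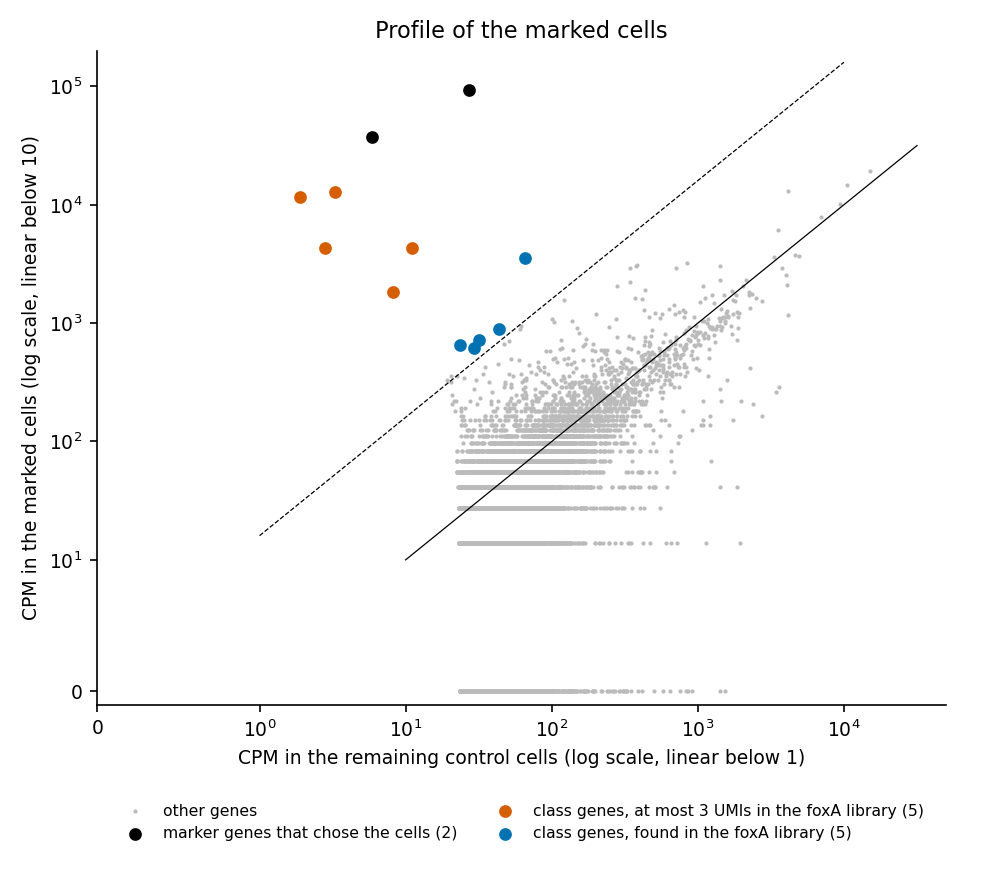
Each point is a gene, with its CPM in the summed remaining control cells on the x axis and in the summed marked cells on the y axis (log scales, linear near 0). The solid line marks equal levels and the dashed line a 16-fold ratio; the marker genes and 5 of the class genes lie farthest above the dashed line, at 1824 to 92324 CPM in the marked cells.

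The class genes fell into a set that was all but missing from the foxA library and a set that was found there. The class genes were chosen in control cells, so their foxA levels were not used in choosing them, although earlier results of these data were known. Both comparisons, marked over remaining and foxA over remaining, share the remaining control cells. At most 3 UMIs in the foxA library were found for 5 of the 10 class genes, beside 17 of all 7846 genes (0.217%). All 5 had fewer than 50 UMIs in the remaining control cells and passed the minimum of 100 control UMIs only through the marked cells, so nothing is read from that background.

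SMESG000065349.1 had 846 UMIs (790 to 905) in the marked cells, 0 in foxA cells and 8 in the remaining control cells. Its CPM were 11687 in the marked cells against 1.88 in the remaining control cells, a log2 ratio of 9.94. SMESG000065355.1 had 930 UMIs in the marked cells, 0 in foxA cells and 14 in the remaining control cells, a log2 ratio of 9.92. SMESG000065349.1 was found in 82 marked cells and SMESG000065355.1 in 81, and neither exceeded 40 UMIs in a cell.

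SMESG000043644.1 had 312 UMIs in the marked cells, 0 in foxA cells and 12 in the remaining control cells (log2 ratio of marked over remaining cells 8.40). It was present in 78 marked cells at up to 13 UMIs. SMESG000011859.1 had 314 UMIs in 59 marked cells, 0 in foxA cells and 47 in the remaining control cells (log2 ratio 7.69). Of its 47 UMIs outside the marked cells, 38 lay in control cells that have a marked cell among their nearest neighbours.

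SMESG000024590.1 had 132 UMIs in 44 marked cells, 3 in foxA cells and 35 in the remaining control cells (log2 ratio 6.65). Its 3 foxA UMIs were in 1 cell. For the marker genes and these 5 class genes, the marked cells therefore held 79.0 to 99.1% of all UMIs in the control library. Against the remaining control cells alone, and with 0 UMIs taken as up to 3, the foxA level was at least 28.9-fold lower for SMESG000011859.1, 8.61-fold for SMESG000065355.1, 7.38-fold for SMESG000043644.1 and 4.92-fold for SMESG000065349.1. These bounds take the control counts as exact. Exact intervals that cover both counts, without the pseudocount, reach up to log2 ratios of −4.50, −2.61, −2.36 and −1.66 in the same order. For the marker genes, which the rule used, the fold bounds with control counts taken as exact were 71.4-fold for SMESG000043649.1 and 15.4-fold for SMESG000065348.1. Their exact intervals reach up to log2 ratios of −5.84 and −3.54. SMESG000024590.1 was at 0.382 CPM in foxA cells against 8.23 CPM in the remaining control cells.

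The identifiers SMESG000065348.1, SMESG000065349.1 and SMESG000065355.1 stand near each other in the feature list, in rows 6979, 6980 and 6984, and SMESG000043649.1 and SMESG000043644.1 in rows 19603 and 19606. Whether they are near-identical copies that share reads was not analysed here, so the split of counts within each of these sets is uncertain.

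The other 5 class genes were found in both libraries, each in 2.72 to 4.65% of foxA cells and 1.40 to 3.05% of the remaining control cells. SMESG000005286.1 was the highest of them, with 258 UMIs in 68 marked cells, 342 in foxA cells and 277 in the remaining control cells. Its levels were 3564 CPM in the marked cells, 43.6 CPM in foxA cells and 65.2 CPM in the remaining control cells. The log2 ratio of foxA over remaining control cells was −0.49.

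SMESG000019909.1, SMESG000056013.1 and SMESG000029405.1 had 47 to 64 UMIs in the marked cells and log2 ratios over the remaining control cells of 4.06 to 4.30. Their foxA levels were 30.2, 55.8 and 48.6 CPM, against 23.5, 31.99 and 43.5 CPM in the remaining control cells. SMESG000056430.1 had 45 UMIs in the marked cells, 715 in foxA cells and 124 in the remaining control cells, which was the highest foxA level over the remaining control cells among the class genes (log2 ratio 1.37; without the pseudocount the interval of the log2 ratio was 1.37 to 1.93). At least 1 UMI of these 5 genes was present in 80 marked cells (78.4%), 1072 foxA cells (15.8%) and 570 remaining control cells (9.59%), at median depths of 617, 904 and 559 UMIs.

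At least 1 UMI of the 5 genes of the near-missing set was present in 95 marked cells (93.1%), 1 foxA cell (0.0147%) and 54 remaining control cells (0.909%). These genes were split off for having at most 3 foxA UMIs each, so the low number of foxA cells follows from the split. They also passed the minimum of control UMIs only through the marked cells, so a low share of the remaining control cells is largely built in. Nothing is read from the contrast with the other 5 class genes.

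**Figure D3:**
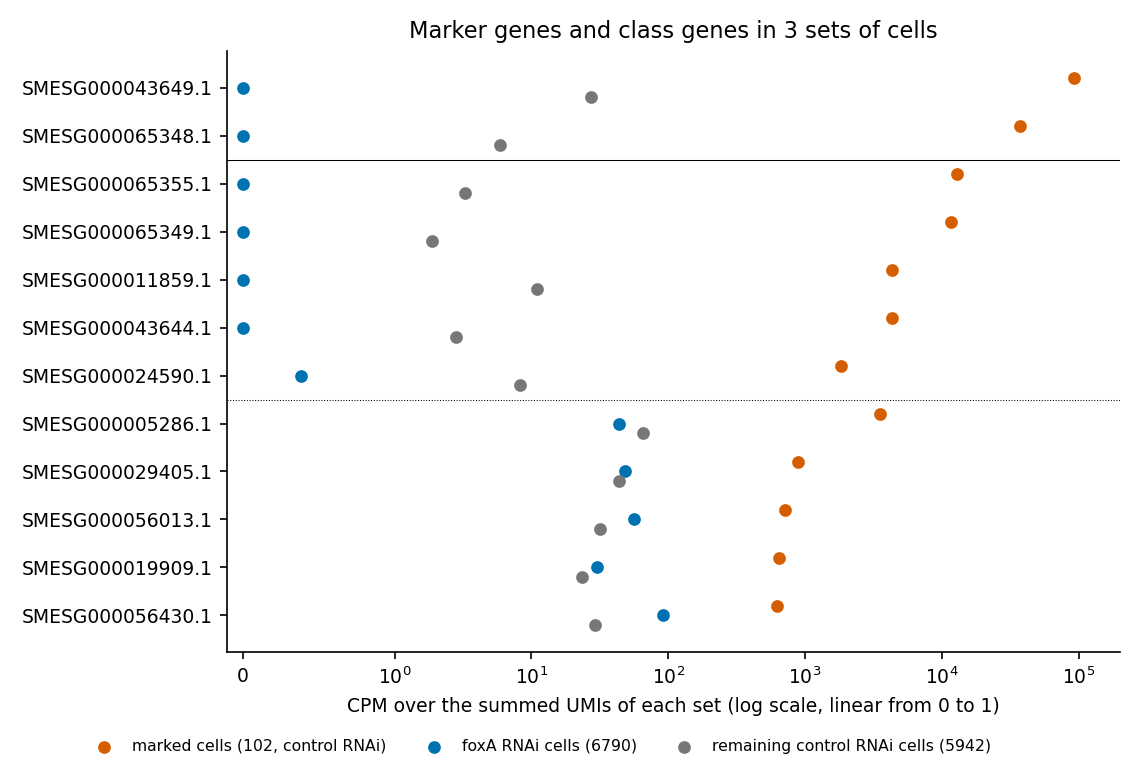
CPM of the marker genes (above the solid line), the 5 class genes with at most 3 UMIs in the foxA library (above the dotted line) and the other 5 class genes, in the marked cells, all foxA cells and the remaining control cells. The first 7 genes lie at or below 0.382 CPM in the foxA library, and the last 5 at 30.2 to 91.1 CPM.

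Further named genes were less tied to the class. SMESG000023001.1 and SMESG000022726.1 had 68 and 65 UMIs in the marked cells and log2 ratios over the remaining control cells of 3.73 and 3.69. They were present in 2.18% and 2.31% of foxA cells, against 2.44% and 2.05% of the remaining control cells. SMESG000002907.1 had 114 UMIs in 54 marked cells, 211 in foxA cells and 516 in the remaining control cells. Its level was 26.9 CPM in foxA cells against 121 CPM in the remaining control cells.

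Of the 99 genes at least 4-fold higher in the marked cells, 7 had at most 3 UMIs in the foxA library, beside 17 of 7846 (0.217%) overall. Of the 7, 5 were the near-missing class genes, which passed the minimum of control UMIs only through the marked cells, so nothing is read from this count. The median log2 ratio of foxA over remaining control cells was −0.15 for these 99 genes and 0.07 for all 7846. At least 4-fold lower in foxA cells than in the remaining control cells were 7 of the 99, beside 26 of 7846 (0.331%) overall; none of the 99 was at least 4-fold higher there, beside 4 of 7846 (0.051%). By fold class, the median was −0.30 for the class genes, −0.20 for 19 genes raised 8- to 16-fold and −0.11 for 70 genes raised 4- to 8-fold. The pseudocount of 10 CPM limits how low these ratios can go for genes that are scarce in the remaining control cells. SMESG000065349.1, with 0 foxA UMIs, stood at −0.25, and 0 of the 10 class genes were among the 7 that were at least 4-fold lower.

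The genes furthest below the remaining control cells were not seen at all in the marked cells. SMESG000056362.1, SMESG000080290.1, SMESG000066465.1, SMESG000014361.1 and SMESG000036363.1 each had 0 UMIs in the marked cells, and 3521 to 6516 UMIs in the remaining control cells. Their UMIs lay in a small part of the remaining control cells, 1.26 to 1.95% of them. With 0 of 102 marked cells taken as up to 3, a share of up to 2.94% is allowed, so a lower share of cells with these genes was not detectable. All 5 were present in the foxA library at 3000 to 8874 UMIs.

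When the marked cells were clustered on their own without the marker genes, they gave 3 subgroups, of 47, 47 and 8 cells. Subgroup 2 was the one richest in the class genes, which made up 7.16% of its UMIs, against 1.93% in subgroup 1 and 0.763% in subgroup 3. The median marker share was 17.1% in subgroup 2, 4.37% in subgroup 1 and 1.57% in subgroup 3. The marker genes were left out of the genes used for clustering, but each cell's total, by which counts were scaled, still included them. The class genes also took part, so the order of the marker levels over the subgroups may be partly built in.

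In subgroup 2, at least 91.5% of cells held SMESG000065348.1, SMESG000065349.1, SMESG000065355.1, SMESG000043644.1 and SMESG000011859.1. In subgroup 1 the share with SMESG000011859.1 was 34.0% and the share with SMESG000024590.1 was 25.5%, against 91.5% and 68.1% in subgroup 2. SMESG000056430.1, the class gene with the highest foxA level over the remaining control cells, had most of its UMIs in subgroup 2, with 43 UMIs in 22 cells, against 2 UMIs in subgroup 1 and 0 in subgroup 3. Median depths were 666 UMIs in subgroup 2, 593 in subgroup 1 and 421 in subgroup 3.

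The 3 leading genes of subgroup 2 each came from 1 cell. SMESG000028209.1, SMESG000033795.1 and SMESG000053041.1 had 66, 48 and 37 UMIs there and 0 in the other marked cells. Genes spread over many of its cells stood lower in the ranking and were picked after their values were seen. SMESG000065078.1 had 33 UMIs in 17 cells of subgroup 2, 1 UMI in the other marked cells, 98 in the foxA library and 14 in the remaining control cells. SMESG000058901.1 had 31 UMIs in 18 of its cells, 3 in the other marked cells, 35 in the foxA library and 18 in the remaining control cells, and SMESG000065054.1 had 23 UMIs in 16 cells and 0 in the other marked cells.

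Subgroup 1 was led by genes of a few cells that are common in the rest of the library. SMESG000025001.1, SMESG000025000.1 and SMESG000003087.1 had 59, 44 and 39 UMIs in 5, 5 and 3 of its cells, and 1 cell held 45, 31 and 31 of these. They were found in 18.1%, 13.5% and 7.69% of the remaining control cells. Subgroup 1 also held 72 of the 74 UMIs of the 10 other-class markers, a summed level of 1942 CPM, against 63.5 CPM in subgroup 2 and 0 UMIs in subgroup 3. The part these transcripts have in separating subgroup 1 was not tested.

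Subgroup 3 was led by a different set of genes and lay at the edge of the rule, since 6 of its 8 cells had fewer than 10 marker UMIs. SMESG000046770.1 was found in all 8 of its cells, at 2 to 11 UMIs, in 1 cell of subgroup 1 and in 0 cells of subgroup 2. In the foxA library it had 0 UMIs, against 218 in the remaining control cells. This is at least 134-fold lower with 0 taken as up to 3 UMIs and the 218 taken as exact, and the exact interval reaches up to a log2 ratio of −6.76. SMESG000033673.1 had 125 UMIs in subgroup 3 and 12 in the other marked cells, and SMESG000036225.1 had 82 and 12. SMESG000073811.1 had 29 UMIs in all 8 cells of subgroup 3 and 1 in the other marked cells; unlike the 3 genes before it, it was common in foxA cells, at 1744 UMIs. A subgroup of 8 cells lay below the size for which genes were to be named, so these 4 were picked after their values were seen. Over all marked cells, the log2 ratio of SMESG000046770.1 over the remaining control cells was 3.54. It was 1.58 with at least 10 marker UMIs per cell and 1.11 with a marker share of at least 5%, the second limit being chosen after seeing the data.

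The 8 cells formed a subgroup of their own at a higher resolution (1.0) and with another seed. In the other 4 alternatives the cells with SMESG000046770.1 fell into larger groups, of 55 cells at resolution 0.3, 21 with 1000 variable genes, 50 with 20 principal components and 42 after thinning.

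In the same 8 cells, 5 of the 10 class genes were not seen. Their SMESG000043649.1 counts ran from 5 to 37 UMIs, and the marker SMESG000065348.1 and the class genes SMESG000065349.1, SMESG000065355.1, SMESG000011859.1, SMESG000024590.1 and SMESG000056430.1 were at 0 in all of them. With 0 of 3800 UMIs taken as up to 3, a level of up to 789 CPM is allowed for each, while the first 3 genes were at 19990 to 59525 CPM in subgroup 2. SMESG000043644.1 was present in 6 of the 8 cells and SMESG000005286.1 in 5, and the other 3 class genes had 1 to 3 UMIs each. Over all marked cells, SMESG000065348.1 was present in 0 of 9 cells with SMESG000046770.1 and in 90 of 93 cells (96.8%) without it.

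**Figure D4:**
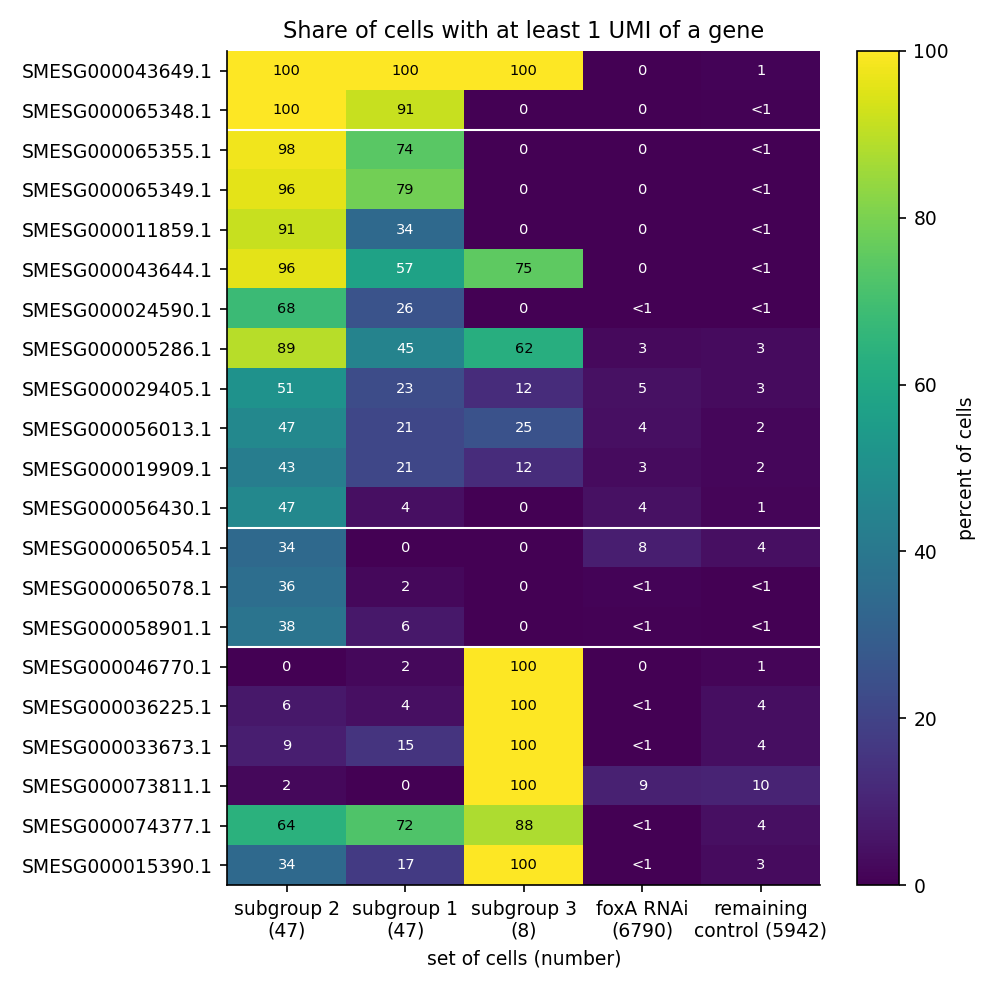
Each cell of the grid gives the percentage of cells with at least 1 UMI of a gene (rows) in subgroups 2, 1 and 3 of the marked cells, in foxA cells and in the remaining control cells (columns, with cell numbers). From the top, blocks hold the marker genes, the class genes, genes of subgroup 2 and genes of subgroup 3; subgroup 3 is at 100% for 5 genes of the last block and at 0% for SMESG000065348.1.

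SMESG000046770.1 was not limited to the marked cells. Among the remaining control cells, 85 held it, and 7 of these (8.24%, interval 3.38 to 16.2%) also held SMESG000043649.1. Of the 5857 remaining control cells without it, 62 held SMESG000043649.1 (1.06%, interval 0.813 to 1.36%). Median depths of these cells were 574 and 558 UMIs.

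Further transcripts that were scarce in the foxA library were shared by marked cells and other control cells. The genes SMESG000074377.1, SMESG000036225.1, SMESG000033673.1, SMESG000015390.1 and SMESG000046770.1 were picked for this after their values were seen. SMESG000074377.1 had 225 UMIs in the marked cells, 8 in foxA cells and 1621 in the remaining control cells. It was present in 71 marked cells (69.6%), 0.0442% of foxA cells and 4.16% of the remaining control cells, and in all 3 subgroups, at 87.5% of cells in subgroup 3, 72.3% in subgroup 1 and 63.8% in subgroup 2.

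At least 5 UMIs of the 5 genes together were held by 25 marked cells (24.5%, interval 16.5 to 34.0%), 1 foxA cell (0.0147%) and 216 remaining control cells (3.64%, interval 3.17 to 4.14%). The genes were picked as scarce in the foxA library and present in marked cells, so the low foxA number follows from the pick. The share of marked cells is also partly built in. The marked cells held 18.96% of the control library's UMIs of SMESG000046770.1, 12.2% of those of SMESG000074377.1 and 4.88% of those of SMESG000036225.1. Most transcripts of these genes therefore lay in control cells outside the marked class.

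The 1 foxA cell was deep, with 2592 UMIs and 1519 genes. It held 6 of the library's 8 UMIs of SMESG000074377.1 and 5 of the 6 of SMESG000036225.1, 0 of the marker genes and 0 of the 5 near-missing class genes. It also held 53 of the 55 foxA UMIs of SMESG000033462.1 and 63 of the 86 of SMESG000030689.1. Its barcode was not found in the control library. The other foxA cells with any of the 5 genes numbered 14, with at most 3 UMIs each.

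To look for foxA cells that resemble the marked cells in their other genes, all cells were placed by 30 principal components of 2000 variable genes without the marker genes. Of each cell's 15 nearest control cells, the number that were marked cells was then counted. No foxA cell had 8 or more, 103 (1.52%) had at least 1, and the highest number was 5. With the 50 leading genes of the class left out as well, 4 foxA cells had 8 or more, beside 61 marked cells and 16 remaining control cells. With these genes kept, 80 of the marked cells themselves had 8 or more, 59 had 15 of 15 and 7 had 0. Among the remaining control cells 6 had 8 or more and 134 (2.26%) had at least 1. The class genes were among the genes used, and the marker genes counted in each cell's total. The high numbers within the marked cells therefore follow in part from the choice of cells.

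**Figure D5:**
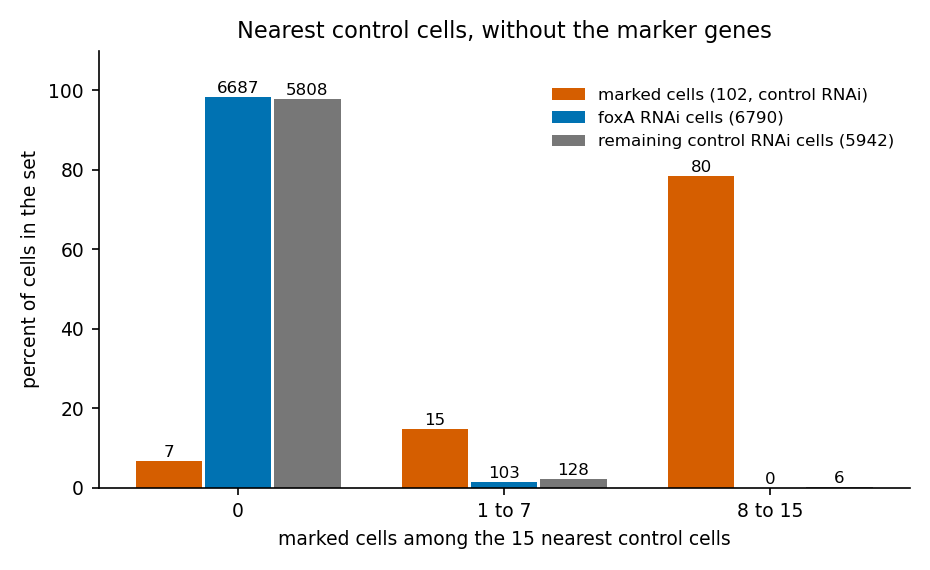
Bars give the percentage of the marked cells, foxA cells and remaining control cells with 0, 1 to 7 or 8 to 15 marked cells among their 15 nearest control cells, with the number of cells written over each bar. The marked cells lie mostly in the last bin (80 of 102), which holds 0 foxA cells.

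In the same space, the median distance of a marked cell to its nearest other marked cell was 4.33, to its nearest foxA cell 14.4 and to its nearest remaining control cell 9.08. The remaining control cells were nearer to both, with medians of 3.25 to a foxA cell and 3.07 to another remaining control cell. A foxA cell was nearer than any control cell for 2 marked cells (1.96%), both of subgroup 1. For the remaining control cells, a foxA cell was nearer than any other remaining control cell in 36.3%. Class genes took part in this space, 5 of them with at most 3 UMIs each in the foxA library, and marker genes counted in each cell's total. The larger distance of marked cells to foxA cells is therefore partly built in. Median depths were 617, 904 and 559 UMIs in marked, foxA and remaining control cells, and the part of depth in the distances was not tested.

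By subgroup, the median distance to the nearest foxA cell was 16.9 for subgroup 2, 9.55 for subgroup 1 and 19.2 for subgroup 3. The subgroups were formed with class genes too, so this order may be partly built in. Their median depths were 666, 593 and 421 UMIs in the same order. Of the 47 cells of subgroup 2, 46 had at least 8 marked cells among their 15 nearest control cells, against 34 of 47 in subgroup 1 and 0 of 8 in subgroup 3. A subgroup of 8 cells cannot supply 8 marked neighbours to 1 of its own cells, so this 0 follows in part from its size. The 8 cells had 0 to 6 marked cells among their 15 nearest control cells, and the others of the 15 did not meet the rule.

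The foxA cells nearest to the marked cells did not carry the class profile. The nearest foxA cells of the 102 marked cells were 32 different cells, 3 of which served 49 marked cells. These 32 cells held 7 UMIs of the class genes in 31741 (0.0221%), against 0.0270% in all foxA cells. They were led by SMESG000033795.1, with 132 of the library's 300 UMIs. The 103 foxA cells with a marked cell among their nearest held 12 class UMIs, or 0.00983%.

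The class genes took part in placing the cells, so control cells that hold them are drawn towards the marked cells, and the values of these neighbours are a description. In the 134 remaining control cells with a marked cell among their nearest, the class genes made up 0.167% of UMIs, with all 10 detected, against 0.0221% in all remaining control cells. These 134 cells held 52 of the 141 marker UMIs outside the marked cells, and 971 of 1853 UMIs of SMESG000033673.1, 644 of 1834 of SMESG000036225.1, 595 of 1621 of SMESG000074377.1, 159 of 657 of SMESG000015390.1 and 118 of 218 of SMESG000046770.1. Of all UMIs of the remaining control cells they held 113769 of 4251042. Only the marker genes were barred from placing the cells, so the counts of the other genes may be partly built in as well.

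Per cell, the share of UMIs from the class genes had a median of 3.73% in the marked cells, with quartiles of 1.15% and 7.02% and a highest value of 18.2%. The highest value was 1.55% in foxA cells and 2.81% in the remaining control cells. Above the 5th percentile of the marked cells, 0.116%, lay 548 foxA cells and 452 remaining control cells. At this low bound 1 UMI is enough in the shallower cells. The 5 class genes found in both libraries supplied 2113 of the 2116 class UMIs in foxA cells and 822 of 938 in the remaining control cells. At or above the median of the marked cells there were 0 foxA cells and 0 remaining control cells.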

How the data were processed

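The deposited values were whole-number UMI counts per gene and barcode. The file headers name Cell Ranger 6.1.2 and the submitters' processing notes Cell Ranger 7. The genome build and annotation are not given in the sources used here. Every deposited barcode had at least 440 UMIs in the foxA library and 286 in the control library; 8 foxA and 12 control barcodes with fewer than 100 genes were removed. The members and lists were chosen with earlier results of these data known.

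UMIs were summed per set of cells and scaled to CPM, with a pseudocount of 10 CPM. Genes needed 100 UMIs over the control cells. With 1 library per condition no test was made. Shares have Clopper-Pearson, sums Poisson and ratios conditional binomial exact intervals, and a count of 0 is taken to allow 3. Intervals cover counting error only.

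Marked cells were clustered (Leiden, resolution 0.5) with 10 principal components of 500 variable genes, ranked by the variance of Pearson residuals among genes seen in at least 5 cells. The steps were tested on simulated counts. Scrublet called 0 doublets in either library, a share too low for these cell numbers, so the calls were not used and no doublets were removed in the main analysis; removing the highest 5% of scores, 5 marked cells among them, was an alternative. Tools were Python 3.11.15, scanpy 1.11.5, leidenalg 0.10.2 and, for TMM factors, edgeR 4.0.16.

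Named genes were the markers; the 12 highest by log2 ratio with at least 50 UMIs in members; the 5 most abundant raised genes; the 5 lowest with at least 500 control UMIs; the 3 leading genes of subgroups of at least 15 cells; the class genes highest and lowest after foxA RNAi; and the other-class markers. SMESG000019909.1, outside this rule, was named to complete the 10 class genes.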

Additional observations from a re-analysis of the deposited data

How the results depend on the processing

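No paired analysis was possible because there was 1 library per condition, and no replicate could be left out for the same reason. Of the alternative values of the main results, 58 stayed near the value reported (counts within 1.5 times) and 18 did not. The 58 include the counts of marked cells in the foxA library, which could only be 0, since no foxA barcode held a marker UMI. They also include subgroup numbers of 2 or 4 against 3, where the partition itself changed. The share of marked cells was 1.32% with at least 500 genes per cell and, chosen after seeing the data, 1.11% with a marker share of at least 5%. The number of genes 4-fold higher was 53 with at least 500 genes per cell, 48 with a pseudocount of 50 CPM, 223 with no filter, 64 after thinning to 400 UMIs and 23 with at least 500 UMIs per gene. The number 4-fold lower was 1738 with a pseudocount of 1 CPM, 116 with 50 CPM, 1893 with a marker share of at least 5% and 217 with at least 500 UMIs per gene; the marker share and the 500 UMIs per gene were chosen after seeing the data. With no filter, 11 of 28 class genes had at most 3 foxA UMIs. Subgroups numbered 5 at resolution 1.0. The 8-cell subgroup was kept there and with another seed, but merged into larger groups at resolution 0.3, with 1000 variable genes, with 20 components and after thinning, where the adjusted Rand index with the main partition was 0.85, 0.42, 0.72 and 0.63. Removing the highest 5% of doublet scores gave 101 genes higher, 1279 lower and 9 class genes. Nearest foxA cells numbered 4 with the 50 leading genes left out, 1 with 15 components and 1 with 4000 variable genes. The remaining control cells that passed numbered 16, 15 and 11 in these settings. The foxA cells above the 5th percentile of the marked cells in class gene share, 548 in the report, numbered 148 with class genes taken from 8-fold, and 83 lay above the 10th percentile. Of the values for named genes 257 held, 62 moved and 1 turned round: SMESG000046770.1 was −2.40 (log2, marked over remaining cells) with at least 500 genes per cell, a filter that keeps 27 marked cells. The cause was not tested. The 257 include all values with no filter on low counts, a setting that cannot change a gene's ratio. They also include every value of the 5 lowest genes, for which no lower limit was set. SMESG000056362.1, for example, went from −7.27 to −10.6 with a pseudocount of 1 CPM and was counted as held. The 102 marked cells sum to few UMIs, so that 1 UMI is 13.8 CPM there.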
